A study of Mus musculus with 6 samples.

Results

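The monocarboxylate transporter genes of the hippocampus were examined in 3 CTR mice and 3 SD mice. These genes encode carriers of the solute carrier 16 family, which move lactate, pyruvate, ketone bodies and related small molecules across membranes. The 9 members were chosen by family name among the 15423 genes of the deposited count table, with results of the comparison between SD and CTR mice already known. Other Slc16 genes of the table were left out of the 9, and some are given below. All 9 were present, with summed counts over the 6 mice from 509 for Slc16a8 to 8843 for Slc16a7, where the least covered gene of the table had 40. The values of this comparison are therefore given as a description of the members and not as evidence that the family responds.

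All mice were C57BL/6J. CTR mice were bred and housed under 12 h of light alternating with 12 h of darkness. SD ("Short Day") mice were conceived and raised under 8 h of light alternating with 8 h of darkness up to day 42, a light schedule meant to disturb circadian rhythms during development. The mice are described as adult, with no age in days or litter given for the RNA-seq tissue in the sources used here, and the spread behind every p is that among these 6 animals alone. The study's methods name dissected hippocampus as the tissue, while the extraction text of the sample labels names cells and spheroids. All 9 listed markers of hippocampal principal neurons were present, with a summed level of 971 to 1035 CPM (counts scaled to library size) in CTR mice and 989 to 1040 CPM in SD mice, and none passed the cutoffs given below. Total counts ranged from 23300710 to 34447082 per mouse. By its Xist and Ddx3y counts CTR mouse 5 was the only female, and CTR mouse 1 had 1.84% of its counts on the ribosomal precursor Rn45s, against at most 0.231% in the others.

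The carriers fall into groups by what they transport. Slc16a1 (MCT1), Slc16a7 (MCT2), Slc16a3 (MCT4) and Slc16a8 (MCT3) carry lactate and other monocarboxylates together with a proton, and they need a small membrane glycoprotein, basigin or embigin, to reach the cell surface. In the brain MCT1 is known from endothelial cells and glia, MCT2 from neurons and MCT4 from astrocytes, and this division is the base of the idea that astrocytes hand lactate to neurons. MCT3 is known from epithelia, those of the retinal pigment layer and of the choroid plexus, the tissue in the ventricles that secretes cerebrospinal fluid. Slc16a12 encodes a creatine carrier, human SLC16A9 has been tied to carnitine transport, and a relative of Slc16a6 exports ketone bodies from the liver of zebrafish. The substrates of the products of Slc16a4 and Slc16a13 are less settled.

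Promoter sequence is shown for 3 members because the study concerns the circadian clock, whose core activators bind the E-box, the 6 letters CACGTG. RefSeq promoter windows of GRCm38.p6, the build of mm10, were found for 6 of the 9 members, and 2 of them held the E-box on either strand, which for this palindrome is the same match. Over all 32851 windows of the same 300 bases, 7.15% held it. The 250 bases before the annotated start are printed 5′ to 3′ with the E-box in capitals. Slc16a12 lies on the minus strand, with its stretch at chr19:34747329-34747578, Slc16a4 on the plus strand at chr3:107290980-107291229, and Slc16a1 on the plus strand at chr3:104638414-104638663. Slc16a12 and Slc16a4 are set side by side because their levels followed each other most closely of all pairs of members, and Slc16a1 because it was the other member with an E-box.
Slc16a12: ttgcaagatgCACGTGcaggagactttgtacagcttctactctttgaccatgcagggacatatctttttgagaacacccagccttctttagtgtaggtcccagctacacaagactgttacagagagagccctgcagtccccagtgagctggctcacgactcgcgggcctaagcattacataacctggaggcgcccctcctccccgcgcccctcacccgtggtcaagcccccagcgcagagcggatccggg
Slc16a4: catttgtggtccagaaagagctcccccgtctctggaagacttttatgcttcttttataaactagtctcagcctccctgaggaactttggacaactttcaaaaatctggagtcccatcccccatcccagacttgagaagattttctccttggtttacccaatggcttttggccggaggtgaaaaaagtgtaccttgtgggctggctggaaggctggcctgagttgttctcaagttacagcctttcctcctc
Slc16a1: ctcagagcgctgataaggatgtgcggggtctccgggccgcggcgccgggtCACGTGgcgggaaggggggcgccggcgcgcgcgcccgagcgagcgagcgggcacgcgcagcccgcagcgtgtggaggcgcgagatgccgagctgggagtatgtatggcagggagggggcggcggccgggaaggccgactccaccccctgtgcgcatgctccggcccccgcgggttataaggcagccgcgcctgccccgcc

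The 6 windows differed in base composition. Those of Slc16a1, Slc16a3 and Slc16a9 had 73.7%, 73.3% and 70.7% G and C and held 42, 36 and 26 CpG dinucleotides. Those of Slc16a12, Slc16a8 and Slc16a4 had 60.0%, 58.3% and 49.3% G and C with 16, 1 and 3 CpG dinucleotides, where the median over all windows was 52.7% G and C. The presence of the 6 letters is a match in sequence and says nothing of binding in these mice. The part of the E-box in the levels of the members was not tested.

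Per length of exon, Slc16a1 was the most abundant member. Its level, the mean over the 6 mice of CPM per kb of merged exon, was 10.95 ± 0.983 (s.d., n = 6), and no mouse of another member reached its lowest value of 9.53. Slc16a7 followed with 4.48 ± 0.160 (s.d., n = 6) and Slc16a6 with 3.60 ± 1.27 (s.d., n = 6). Slc16a13, Slc16a9, Slc16a12, Slc16a4 and Slc16a8 stood at 2.26, 1.73, 1.49, 1.27 and 1.22 on this scale, and Slc16a3 was lowest at 0.586 ± 0.191 (s.d., n = 6). Apart from Slc16a1 and Slc16a7, whose ranges were separate, each neighbour in this order overlapped the next in its range over the mice. Exon length was taken over all annotated transcripts of GENCODE M21, so a gene with long unused exons would be placed too low. Which exons were used was not measured. Slc16a7 has the longest exon length of the members, 11.8 kb. Without division by length its mean over the 6 mice was 53.0 CPM, above the 48.5 CPM of Slc16a1.

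Values are listed throughout for CTR mice 1, 2 and 5 and then for SD mice 2, 5 and 6. The members of the lactate shuttle between glia and neurons did not pass the cutoffs. Slc16a7, the neuronal carrier, was at 52.5, 55.2 and 51.5 CPM under the CTR schedule and at 54.4, 54.1 and 50.3 CPM under the SD schedule. The groups overlapped throughout, and its log2 fold change, SD relative to CTR mice, was -0.0042 (standard error 0.079). This was the least variable member, with a ratio of 1.10 between its highest and lowest mouse. Slc16a1 was at 44.4, 49.7 and 48.9 CPM in the CTR mice and at 42.2, 52.8 and 52.7 CPM in the SD mice, where SD mouse 2 was below every CTR mouse and the other SD mice were above them. Its log2 fold change was 0.047 (standard error 0.10).

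Slc16a3, the carrier known for lactate export from glycolytic cells, was the only member with a sizeable lower mean in SD mice. The CTR mice gave 82, 116 and 83 counts and the SD mice 45, 91 and 96, or 3.70 ± 1.03 CPM (s.d., n = 3) and 2.53 ± 0.699 CPM (s.d., n = 3). SD mice 5 and 6 lay within the range of the CTR mice, and SD mouse 2 below it. The log2 fold change of -0.53 (standard error 0.27) did not pass, and it was -0.72 and passed the cutoffs when CTR mouse 5 was left out. Slc16a13, on chromosome 11 from 70216789 to 70221064, was at 7.23, 6.27 and 4.37 CPM in the CTR mice and 5.05, 5.92 and 6.43 CPM in the SD mice, which all lay inside the range of the CTR mice.

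**Figure D1:**
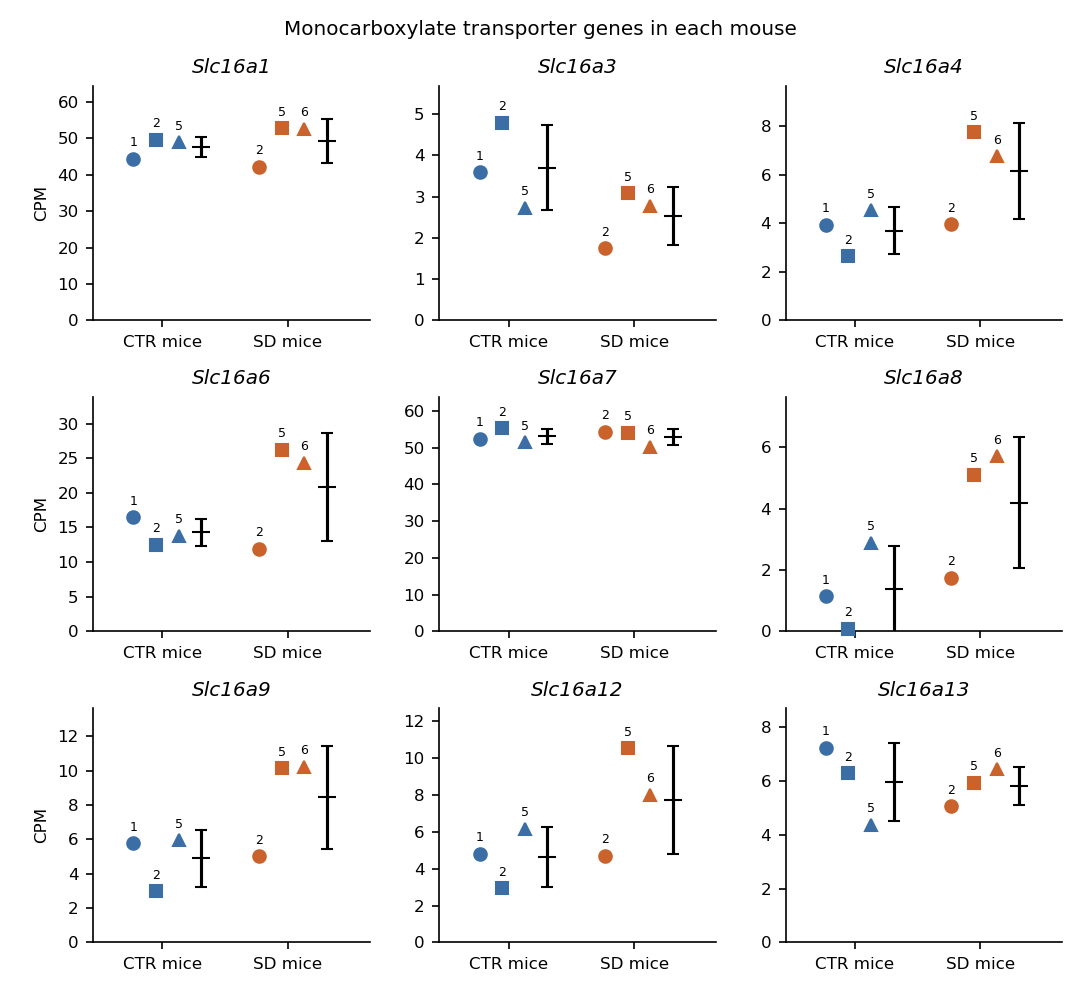
Levels of the 9 transporter genes in CPM (y axis, from 0), one point per mouse with the mouse number above it, CTR mice in blue and SD mice in orange, with the mean and standard deviation of each group of 3 in black (cut at 0 for Slc16a8). The groups overlap for every gene. For Slc16a8, Slc16a9, Slc16a12, Slc16a4, Slc16a6 and Slc16a1 SD mice 5 and 6 lie above all CTR mice while SD mouse 2 does not.

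The quasi-likelihood test of edgeR was run over the 15345 genes that passed its filter on low counts, all 9 members among them. A gene was called with an unadjusted p no higher than 0.05 in this edgeR test together with a log2 fold change of 0.58 or more in either direction, the cutoffs of the study's methods. Called higher in SD mice were 4 of the 9 members, Slc16a8, Slc16a9, Slc16a12 and Slc16a4, and 0 were called lower, where 2.10% of all tested genes were called higher and 0.880% lower. Since the members were chosen with this contrast in view, nothing is read from that count. Slc16a6 passed the cutoff on p as well but not that on the fold change. The median log2 fold change was 0.55 over the 9 members and 0.0015 over all tested genes. The 9 members are not the whole family and were chosen as said, so nothing is read from this median either. Adjusted over all genes by Benjamini-Hochberg, no member passed, with adjusted p from 0.553 to 0.995 in edgeR and a lowest value of 0.337 in DESeq2, which called Slc16a9, Slc16a12 and Slc16a4 but not Slc16a8. Over all genes, edgeR left 0 with an adjusted p under 0.05 and 1277 with an unadjusted p under 0.05, and DESeq2 left 56 with an adjusted p under 0.05.

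Slc16a8, the epithelial carrier MCT3, had the widest range. This gene lies on the minus strand of chromosome 15 from 79251014 to 79254761. The CTR mice gave 26, 2 and 88 counts and the SD mice 45, 151 and 197. The corresponding levels were 1.14, 0.0825 and 2.89 CPM and 1.75, 5.11 and 5.70 CPM, so that CTR mouse 2 was far below all others and SD mouse 2 lay below CTR mouse 5. The log2 fold change was 1.57 (standard error 0.69). It was 2.81 when CTR mouse 5, the female, was left out and 1.03 without CTR mouse 2.

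Slc16a9, on the plus strand of chromosome 10 from 70245100 to 70285968, gave 132, 72 and 181 counts among CTR mice against 129, 300 and 353 among SD mice. Its level was 4.90 ± 1.67 CPM (s.d., n = 3) in CTR mice and 8.46 ± 2.99 CPM (s.d., n = 3) in SD mice. SD mice 5 and 6, at 10.2 CPM each, were above all CTR mice, while SD mouse 2 at 5.01 CPM was below CTR mice 1 and 5. The log2 fold change was 0.79 (standard error 0.31), or 1.73-fold.

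Slc16a12, the creatine carrier, lies on the minus strand of chromosome 19 from 34668403 to 34747289, in GENCODE M21. The E-box shown above begins at position -240 from the RefSeq start on which the promoter window was placed, which is not the same base as the GENCODE end of the gene. Counts of 110, 71 and 188 were obtained from the CTR mice, and of 121, 311 and 277 from the SD mice. At 4.70 CPM SD mouse 2 was again inside the range of the CTR mice, which ran from 2.93 to 6.17 CPM, and the other SD mice were at 10.5 and 8.02 CPM. The log2 fold change was 0.73 (standard error 0.31).

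Slc16a4, on the plus strand of chromosome 3 from 107291230 to 107312115, showed nearly the same course as Slc16a12. The CTR mice gave 90, 64 and 138 counts and the SD mice 102, 229 and 234. The levels were 3.71 ± 0.969 CPM (s.d., n = 3) and 6.16 ± 1.97 CPM (s.d., n = 3), with SD mouse 2 at 3.96 CPM within the CTR mice. The log2 fold change was 0.73 (standard error 0.27).

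Slc16a6 (MCT7), on the minus strand of chromosome 11 from 109450855 to 109473598, was between the called members and the rest. It stood at 16.5, 12.5 and 13.8 CPM among CTR mice against 12.0, 26.2 and 24.4 CPM among SD mice, with SD mouse 2 below every CTR mouse. The log2 fold change of 0.55 (standard error 0.25) was under the cutoff, and without SD mouse 2 it was 0.82 and the gene was called. This member shares 1052 bases of exon with Amz2 and 48 with Arsg, both on the opposite strand. The counting was by strand, and Amz2 was at 54.0 and 54.9 CPM in CTR and SD mice, respectively (log2 fold change 0.025).

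**Figure D2:**
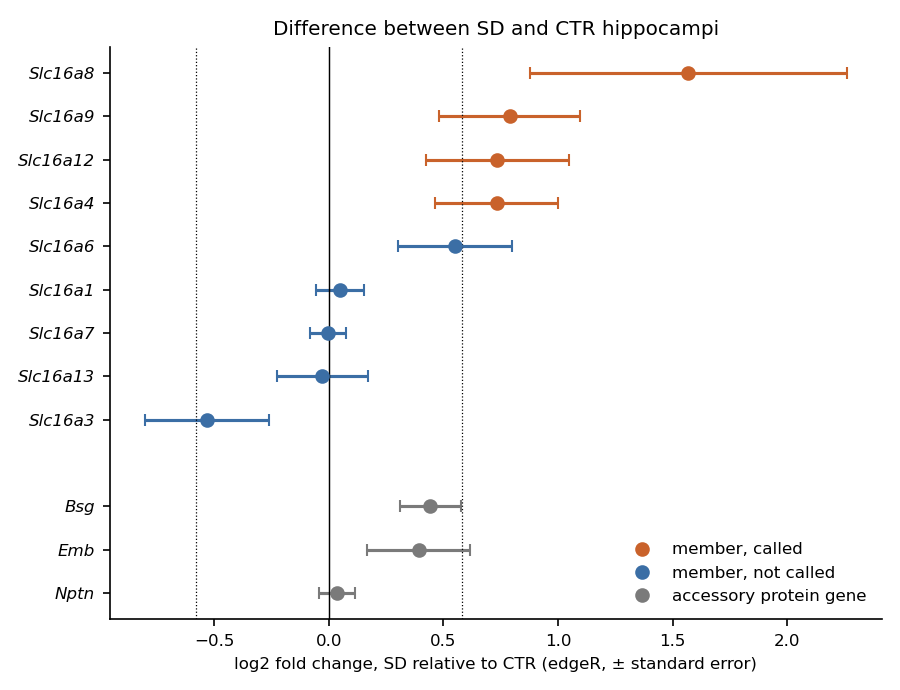
Log2 fold change of SD relative to CTR mice (x axis) with its standard error from edgeR, for the 9 members (top block) and for the accessory proteins (bottom block, grey). Dotted lines mark a log2 fold change of 0.58 in either direction; the 4 called members, in orange, run from 0.73 to 1.57, and Slc16a3 at -0.53 is the lowest of all genes shown.

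The SD mice differed among themselves in several members. For 6 of the 9 members, the 4 called ones with Slc16a6 and Slc16a1, SD mice 5 and 6 both lay above all CTR mice, whereas SD mouse 2 was below CTR mouse 5 for 7 of the 9. The share of all tested genes with either pattern was not counted, so nothing is read from these counts about the members. In none of the 9 members did the groups separate, where all 3 SD mice were above all 3 CTR mice in 6.11% of the tested genes and below them in 6.20%. Summed over the 9 members, the level per length was 25.5, 24.0 and 25.9 CPM per kb in CTR mice 1, 2 and 5. It was 23.0 CPM per kb in SD mouse 2, the lowest of all, and 34.1 and 33.0 CPM per kb in SD mice 5 and 6. Slc16a1 made up 39.4% to 46.9% of this sum in CTR mice and 35.0% to 41.4% in SD mice. The share of Slc16a8 ran from 0.151% to 4.91% in CTR mice and from 3.33% to 7.60% in SD mice.

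**Figure D3:**
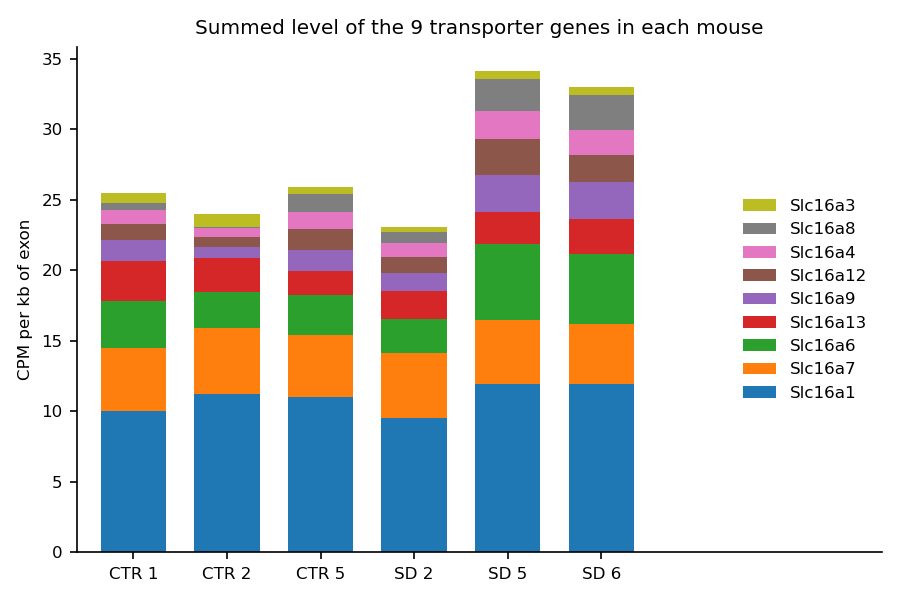
Level of each of the 9 transporter genes in CPM per kb of exon (y axis, from 0), stacked for each of the 6 mice. CTR mice and SD mouse 2 total 23.0 to 25.9 CPM per kb, SD mice 5 and 6 total 34.1 and 33.0, and Slc16a1, at the base, is the largest segment in every mouse.

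The calls rested on single mice. Without CTR mouse 2, SD mouse 5 or SD mouse 6, 0 of the 9 members were called higher, and without CTR mouse 1 there were 2, Slc16a9 and Slc16a4. The 4 called members kept a positive log2 fold change in each of these fits, from 0.45 for Slc16a12 without SD mouse 5 upward.

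The 4 called members also shared an order of the mice within the groups. In each of them CTR mouse 2 was lowest and CTR mouse 5 highest of the CTR mice, and SD mouse 2 was lowest of the SD mice. This order was noticed in the values, and 1004 of the 15345 tested genes, or 6.54%, had it. The share among the genes called higher was not counted. None of the other 5 members had this order, though Slc16a6 also had CTR mouse 2 and SD mouse 2 lowest of their groups. Over the 6 mice, Pearson's r of log2 CPM between Slc16a12 and Slc16a4 was 0.99 and that between Slc16a9 and Slc16a4 0.98. Slc16a6, which was not called, had an r of 0.89 with Slc16a4, 0.89 with Slc16a9, 0.85 with Slc16a12 and 0.67 with Slc16a8. For Slc16a7, r with each of the 4 lay between -0.47 and -0.63. These coefficients describe 6 mice of 2 groups and carry no test.

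Markers of the choroid plexus moved with these members. Of 20 listed markers, none of them a transporter of this family, 17 were called higher in SD mice and 0 lower by edgeR, against 7 and 0 by DESeq2 at the same cutoffs, with 6 called by both. None of the 20 was at 0 in any mouse, and 19 had the order of mice just described. Summed, they reached 2817, 431 and 4752 CPM among CTR mice against 4064, 11412 and 11305 CPM among SD mice, so that SD mouse 2 lay below CTR mouse 5 here too. The defining marker Ttr, the carrier protein of thyroid hormone and retinol that choroid plexus epithelium secretes, had 2502 counts in CTR mouse 2 and 233944 in SD mouse 6, and was called by DESeq2 but not by edgeR, where its unadjusted p was 0.0501 in the fit over all genes. In these bulk samples more cells of a type and more RNA per cell cannot be told apart. The part of the choroid plexus markers in the differences of the transporter genes was not tested.

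The members differed in how closely they followed Ttr, the only marker used for a ratio. Slc16a8 kept a nearly fixed proportion to Ttr, with 0.833, 0.799 and 1.01 counts per 1000 Ttr counts among CTR mice against 0.780, 0.776 and 0.842 among SD mice. The exact binomial 95% intervals, which cover counting error only, shared the values from 0.810 to 0.910 in all 6 mice. In CTR mouse 2, with 2 counts of Slc16a8, the interval ran from 0.097 to 2.89. That is too wide to show whether the proportion held there. Slc16a9 had 28.8 counts per 1000 Ttr counts in CTR mouse 2, 4.23 in CTR mouse 1 and 1.51 to 2.24 in the other 4 mice. Slc16a12 and Slc16a4 were alike in this, at 28.4 and 25.6 in CTR mouse 2 and at most 3.52 and 2.88 elsewhere. In CTR mouse 2, where the choroid plexus markers were lowest, these 3 genes were still at 2.97, 2.93 and 2.64 CPM, while Slc16a8 was at 0.0825 CPM. Ttr was chosen for this ratio after its values were seen. It is also among the 5 genes most like Slc16a8 over the 6 mice, with an r of 0.997. A steady ratio to Ttr therefore need not hold for other markers. From CTR mouse 2 to CTR mouse 5, Slc16a8 went from 2 to 88 counts and Ttr from 2502 to 87184. Between the same mice Kl went from 560 to 2854 counts and Kcne2 from 8 to 664.

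**Figure D4:**
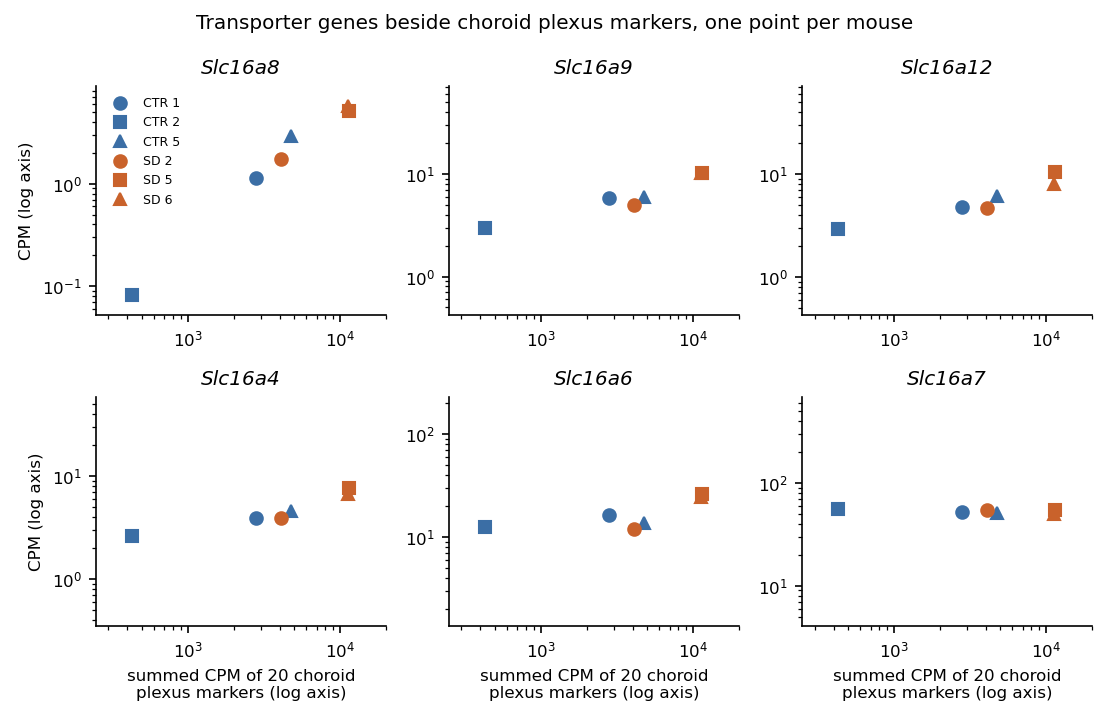
Level of 6 transporter genes (y axis, CPM, log axis of equal span in each panel) against the summed level of 20 choroid plexus markers (x axis, CPM, log axis), one point per mouse. Slc16a8 climbs from 0.0825 to 5.70 CPM as the sum goes from 431 to 11305 CPM, Slc16a9, Slc16a12 and Slc16a4 climb less, and Slc16a7 stays between 50.3 and 55.2 CPM.

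The genes whose pattern over the 6 mice was most like that of each called member were listed among 14054 genes with a mean of at least 1 CPM, by Pearson's r of log2 CPM, as a description. For Slc16a8 they were Dact1, Ttr, Cndp1, Ecrg4 and Crb3, with r of 0.99 or more. For Slc16a9 they were the junction gene Cgnl1, the sialyltransferase gene St6galnac2, Pcolce2, the collagen gene Col18a1 and the homeobox gene Msx1, each at 0.99 or more. For Slc16a4 the first was the tight junction gene Cldn1, followed by the carbonic anhydrase gene Car14, Sowahc, Perp and the protease gene Adamts5. For Slc16a12 they were Mr1, Eif2ak2, Snx9 and Fam107b, with Slc16a4 the fifth. Those first 4 had log2 fold changes of 0.15 to 0.30, below that of Slc16a12 itself. Dact1, at 0.33, was likewise below Slc16a8, and Adamts5, Car14 and Sowahc, at 0.55 to 0.64, were below Slc16a4. Of these 20 entries, 1, Ttr, was among the 20 choroid plexus markers, which are a short list. Over the 6 mice, r with the mean log2 CPM of those markers was 0.94 to 0.99 for the 4 called members. That r was 0.72 for Slc16a6, 0.26 for Slc16a1 and -0.59 to -0.14 for Slc16a7, Slc16a3 and Slc16a13, with no test.

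Markers of other cell types varied between the mice as well. The endothelial sum had the order of mice described above, with 212, 189 and 236 CPM among CTR mice against 169, 264 and 249 CPM among SD mice. Of its 7 markers 0 were called, and their median log2 fold change was -0.15. Only Slco1c1 had a positive one, with 71.0, 60.5 and 83.5 CPM among CTR mice against 72.6, 126 and 115 CPM among SD mice. The ependymal sum, of the ciliated lining of the ventricles, was likewise lowest in CTR mouse 2 and highest in CTR mouse 5 of the CTR mice, with 55.5, 35.0 and 77.5 CPM, but SD mouse 2 was highest of the SD mice, which gave 85.1, 67.3 and 82.5 CPM. Oligodendrocyte markers, of which 1 of 6 was called higher, summed to 6495 to 8431 CPM in CTR mice and 8262 to 10031 CPM in SD mice, and 2 of 10 ependymal markers were called higher. Of the 7 astrocyte markers 0 were called, with a summed level of 4482 to 5974 CPM in CTR mice and 4646 to 5233 CPM in SD mice. Thalamic markers ran the opposite way, with 7 of 9 called lower by edgeR and 5 by DESeq2 and a sum of 330 CPM in CTR mouse 2 against 119 to 149 CPM in every other mouse. Among the thalamic values 1 was 0. Of the 8 leptomeningeal fibroblast markers 1 was called lower by each tool, Fmod by edgeR and Slc22a6 by DESeq2, of the 6 microglial markers 0 were called, and of the 8 hypothalamic markers 2 were in the table, with Trh called higher. The part of these cell types in the results was not tested.

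Of 40 other genes around monocarboxylate transport, 37 were in the table and the other 3, Slc16a5, Slc5a8 and Slc5a12, were not analysed here. Of the 37, 0 were called in either direction by edgeR or by DESeq2, while 4 had an unadjusted p under 0.05 in edgeR, with Bsg, Gamt and Cpt1a among them. Their median log2 fold change was 0.038. Among the accessory proteins, basigin (Bsg), the partner of MCT1, MCT3 and MCT4, stood at 316, 350 and 361 CPM among CTR mice against 363, 484 and 548 CPM among SD mice. All SD mice were above all CTR mice, though SD mouse 2 only narrowly, and edgeR gave a log2 fold change of 0.44 (adjusted p = 0.513). Nptn, a relative of basigin, was at 588 ± 39.6 CPM (s.d., n = 3) in CTR mice and 603 ± 9.30 CPM (s.d., n = 3) in SD mice. For embigin (Emb), the partner of MCT2, the log2 fold change came to 0.39 with a standard error of 0.23.

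Among other genes of the family, Slc16a10, a carrier of aromatic amino acids, Slc16a11 and Slc16a14 had log2 fold changes of -0.067, 0.032 and -0.10.

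Enzymes that use the carried molecules differed little. None of the 14 genes of lactate and pyruvate handling was called, and the lactate dehydrogenase subunit genes Ldha and Ldhb had log2 fold changes of 0.13 and 0.066 with standard errors of 0.088 and 0.086. The 2 of highest mean in that list were Pdha1, of the pyruvate dehydrogenase complex, and Ldhb, with Pdha1 at 320 ± 20.8 CPM (s.d., n = 3) in CTR mice and 328 ± 20.2 CPM (s.d., n = 3) in SD mice. Of the ketone body genes Oxct1 and Acat1 had log2 fold changes of 0.083 and 0.074. Of the creatine and carnitine genes, Gamt, for the last step of creatine synthesis, and Cpt1a, for fatty acid entry into mitochondria, had 0.39 and 0.26 without passing the cutoff on the fold change. The creatine kinases Ckb and Ckmt1 had -0.040 and 0.027, and the glucose transporter genes Slc2a1 and Slc2a3 had 0.085 and -0.047.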

How the data were processed

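Hippocampal RNA of 3 CTR and 3 SD mice was measured by polyadenylated RNA-seq on the Illumina HiSeq platform. The authors used Trim Galore for trimming, HISAT2 for alignment against mm10 and featureCounts for stranded counting that kept multi-mapping reads, so members similar in sequence may share reads; SAMtools and Picard are also named in the submitters' processing notes. Their tool versions and gene annotation, not given in the sources used here, were left unspecified. Whole-number counts per gene and mouse in the deposited table were used. That table also holds a signal value, the authors' mean of counts after DESeq2 scaling, and the authors' own comparison (log2 fold change, Wald score, p-value and adjusted p-value), none of which was used. Columns were matched to mice by sample title.

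Counts were analysed with R 4.3.3 and edgeR 4.0.16 (filterByExpr, TMM, glmQLFit, glmQLFTest, no covariate, all 6 mice), with Benjamini-Hochberg adjustment over the 15345 genes kept of 15423. Standard errors were derived from the F statistic (absolute log2 fold change over √F). DESeq2 1.42.0, other scalings and filters, and each mouse left out were the alternatives. Log2 CPM used a prior count of 2. Total counts of 23300710 to 34447082 per mouse set the precision: 2 counts correspond to 0.0825 CPM in CTR mouse 2. The script was tested on simulated data. The members and lists were chosen with earlier results of these data known; all 9 members are named, with up to 4 called genes or the 2 of highest mean from each other list, and further genes (Slc16a10, Slc16a14, Ldha, Emb, Gamt, Cpt1a, Ttr and Amz2) were added after their values were seen. The result of a gene of the lists is not reported here. Protein sequences were not used here.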

Additional observations from a re-analysis of the deposited data

How the results depend on the processing

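The count of 4 members called higher was 0 at an adjusted p under 0.05, and leaving out 1 mouse at a time gave 0 to 5; none was called lower, but 1 was without CTR mouse 5, Slc16a3. Over all genes, 322 were called higher and 135 lower. These counts were 201 and 64 with a mean count of at least 50, 713 and 564 with no cutoff on the fold change, and 0 and 0 at an adjusted p under 0.05 (edgeR; 1277 at an unadjusted p under 0.05, 56 in DESeq2), and leaving out 1 mouse gave 155 to 500 and 87 to 207. The groups share the mouse numbers 2 and 5, with a correlation of 0.208 and 0.116 between the deviations of same-numbered mice from their group means. The correlation was -0.111 between CTR mouse 2 and SD mouse 5 and -0.128 between CTR mouse 5 and SD mouse 2. These are too few pairs to take the numbers as pairs. With the replicate block 4 members were called higher and 76 genes were called lower. CTR mouse 1 and SD mouse 6 have no same-numbered partner, so the group difference in that fit rests on mice 2 and 5 of each group. The block turned the log2 fold changes of Slc16a1, Slc16a7 and Slc16a13 to -0.061, 0.025 and 0.066. Upper-quartile scaling turned Slc16a7 to 0.0041. Leaving out 1 mouse gave -0.0072 to 0.15 for Slc16a1, -0.026 to 0.029 for Slc16a7 and -0.22 to 0.13 for Slc16a13. DESeq2, its size factors and the other filters left the direction of every member as it was, and DESeq2 alone of these lost a call, that of Slc16a8. The cause of these shifts was not tested. Depth limits Slc16a8 in CTR mouse 2, with 2 counts.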
